A study of Mus musculus with 23 samples.

Results

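The Gstm genes encode the mu class of cytosolic glutathione S-transferases, and 7 of them (Gstm1 to Gstm7) were on the array with 11 probes. Members were the probes whose gene name in the array files was one of these 7 names, and all 11 were kept among the 32087 probes of 21056 genes that passed the filter on dim signals. Mu-class enzymes join reduced glutathione to electrophilic compounds, which include drugs, carcinogens and products of lipid peroxidation, so that the conjugate can be exported and excreted. The genes lie side by side in a tandem cluster, and in rodent liver several of them are known to respond to xenobiotics through receptors such as PXR and CAR and through the stress-responsive factor Nrf2. PXR (gene Nr1i2) is a nuclear receptor that binds its ligand and partners RXR on DNA, and pregnenolone 16α-carbonitrile (PCN) is a ligand of the rodent receptor.

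Liver RNA of 23 male mice was measured on 1-colour Agilent arrays, 1 array per mouse. WT CONT (6 mice) and Pxr-/- CONT (6 mice) received corn oil, and WT PCN (5 mice) and Pxr-/- PCN (6 mice) received PCN at 100 mg/kg in corn oil, injected intraperitoneally each day for 4 days. Mice had free access to food, and were killed at ZT 6, in the light phase and described in the study as semi-fasted, 6 h after the final injection. WT mice were C57BL/6J animals purchased at 6 weeks and acclimatised for 2 weeks, whereas Pxr-/- mice, which lack PXR and had been backcrossed to C57Bl/6J, came from a colony bred in the facility, so genotype and colony cannot be told apart.

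The labels were checked on genes known to follow PXR and CAR. In WT mice 6 of 6 such genes rose with PCN, for example the P450 gene Cyp3a11 by a log2 change of 3.55 (adjusted p = 4.12e-10), and the Cyp3a11 change was larger in WT than in Pxr-/- mice by 3.24 (adjusted p = 1.23e-06). In Pxr-/- mice 2 of the 6, the carboxylesterase gene Ces2a (0.71, adjusted p = 0.00319) and the transporter gene Slco1a4 (1.31, adjusted p = 0.014), also rose with PCN. In control mice Ces2a (0.69, adjusted p = 0.0128) and the P450 gene Cyp2c55 (2.81, adjusted p = 1.53e-07) were higher in Pxr-/- than in WT, and Slco1a4 was lower (-1.83, adjusted p = 0.0046). Gsta1, also on this list of 7, was not on the array by that name. By the calling rule given below, 4.25% of all genes tested were higher with PCN in WT mice and 1.6% in Pxr-/- mice. In control mice 0.252% were higher and 0.0855% lower in Pxr-/- than in WT. The Nr1i2 probe itself did not separate the genotypes (a log2 difference of -0.03 in control mice, adjusted p = 0.977), and whether it lies in the deleted part is not given in the sources used here. All 8 listed hepatocyte markers were well above background on all arrays.

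On the mm9 coordinates of the array files, 10 of the 11 probes lay on chromosome 3 within 145.7 kb, with Gstm5 on the plus strand and the other genes on the minus strand. The order along the chromosome was Gstm5 (chr3:107701511-107701570 for the brighter probe), Gstm7 (chr3:107732073-107733247), Gstm6 (chr3:107741766-107741825), Gstm3 (chr3:107766730-107766789), Gstm2 (chr3:107784622-107784681), Gstm1 (chr3:107815595-107815654 for probe 1) and Gstm4 (chr3:107846495-107846847). The brighter Gstm1 probe (probe 2) carries the same transcript name as probe 1, but the files place it at chr5:117082490-117082549. Gstm1, Gstm5, Gstm6 and Gstm7 have 2 probes each, and Gstm2, Gstm3 and Gstm4 have 1. The files do not say in which exon or UTR a probe lies. Of the 11 probes, 3 cover a genomic stretch longer than their own 60 bases, that is, they bridge introns. They are shown because they read spliced message, and because the 2 Gstm6 probes gave different values. They are written in lower case throughout since no letter is marked.
Gstm4: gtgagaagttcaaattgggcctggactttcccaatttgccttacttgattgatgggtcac
Gstm6 probe 2: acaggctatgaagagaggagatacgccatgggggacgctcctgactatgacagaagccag
Gstm7 probe 1: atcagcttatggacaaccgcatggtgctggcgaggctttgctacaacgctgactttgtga

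The second Gstm7 probe (chr3:107734454-107734513) is assigned to a predicted transcript. Its first 31 bases match a RefSeq window of Gstm7 from 19 bases after the start site, and it was the dimmest of the 11, with raw median signals of 41 to 79 over the arrays. The Gstm proteins are close paralogs, and cross-hybridisation between them was not tested.

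RefSeq (GRCm38.p6) gave 12 start-site windows for the 7 genes, each from 250 bases before to 50 after a start, and 5 of them are printed 5′ to 3′ on the strand of the gene. Gstm1 and Gstm3 are shown as the most alike pair (59.8% identity over 341 aligned columns), Gstm4 as the gene with the largest PCN change in WT mice, and Gstm5 and Gstm7 as the 2 genes that were not called. Capitals mark matches to TGACNNNGC, the core of the antioxidant response element that Nrf2 binds, or to the 6-base nuclear receptor sites AGGTCA and AGTTCA, searched on both strands.
Gstm1 (chr3:108017769-108018068, minus strand): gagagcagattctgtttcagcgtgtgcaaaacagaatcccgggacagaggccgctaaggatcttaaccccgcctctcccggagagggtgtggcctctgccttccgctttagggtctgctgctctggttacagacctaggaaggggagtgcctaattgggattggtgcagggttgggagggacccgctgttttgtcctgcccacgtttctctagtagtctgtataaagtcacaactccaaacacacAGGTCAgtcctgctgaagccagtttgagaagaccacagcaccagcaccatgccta
Gstm3 (chr3:107969125-107969424, minus strand): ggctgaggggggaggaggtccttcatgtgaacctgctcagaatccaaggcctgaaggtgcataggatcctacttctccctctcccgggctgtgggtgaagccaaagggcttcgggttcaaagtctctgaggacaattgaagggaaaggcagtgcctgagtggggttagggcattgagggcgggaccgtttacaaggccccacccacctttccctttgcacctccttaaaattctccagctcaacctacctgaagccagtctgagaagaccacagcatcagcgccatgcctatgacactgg
Gstm4 (chr3:108044807-108045106, minus strand): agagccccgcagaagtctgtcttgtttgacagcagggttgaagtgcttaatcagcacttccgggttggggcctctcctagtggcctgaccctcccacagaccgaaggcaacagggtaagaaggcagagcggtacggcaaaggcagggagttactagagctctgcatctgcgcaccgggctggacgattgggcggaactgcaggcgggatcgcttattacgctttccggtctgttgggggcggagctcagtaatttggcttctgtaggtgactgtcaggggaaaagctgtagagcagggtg
Gstm5 (chr3:107895604-107895903, plus strand): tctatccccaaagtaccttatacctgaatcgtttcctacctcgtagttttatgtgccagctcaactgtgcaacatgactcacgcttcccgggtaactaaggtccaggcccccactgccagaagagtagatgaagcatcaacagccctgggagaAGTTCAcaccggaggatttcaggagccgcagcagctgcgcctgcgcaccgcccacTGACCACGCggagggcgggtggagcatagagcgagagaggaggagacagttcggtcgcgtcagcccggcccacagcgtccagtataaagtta
Gstm7 (chr3:107931565-107931864, minus strand): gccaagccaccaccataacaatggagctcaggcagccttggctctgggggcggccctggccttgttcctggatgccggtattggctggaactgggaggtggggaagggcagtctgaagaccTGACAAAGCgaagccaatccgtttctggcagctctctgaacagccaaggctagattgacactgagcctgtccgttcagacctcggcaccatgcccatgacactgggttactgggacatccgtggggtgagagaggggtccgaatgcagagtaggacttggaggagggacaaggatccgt

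The TGACNNNGC core occurred in 12.4% of all 32851 windows of this length and in 2 of the 12 Gstm windows, that of Gstm5 and 1 window of Gstm7. AGGTCA occurred in 16.3% of all windows and in 1 window of Gstm1, where it starts 5 bases before the start site. AGTTCA occurred in 14.0% of all windows and in the Gstm5 window. Pairs of these 6-base sites, as direct repeats with 3 or 4 bases between them or as everted repeats with 6, were in none of the 12 Gstm windows and in 0.0122%, 0.0274% and 0.00913% of all windows. These letters are a description of short windows and do not locate binding of any factor.

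PCN raised the signal of 5 of the 7 genes in WT mice, Gstm1, Gstm2, Gstm3, Gstm4 and Gstm6. A gene was called here when 1 of its probes had an adjusted p (limma, Benjamini-Hochberg over all 32087 probes) of at most 0.05 and a fold change above 1.5, and 4.25% of all genes tested were called higher on this rule. The median log2 change over the 7 genes, each by its brighter probe, was 1.66, against -0.0236 over all 21056 genes. Gstm5 and Gstm7 had positive changes below the fold limit. By their brighter probes, 5 of 7 genes had no overlap between WT PCN and WT CONT, as did 5.85% of all genes in this direction. All signals below are quantile normalized log2 values, and changes are differences of log2 between groups with washing batch in the model. In whole liver, a change in the number of cells that hold a transcript and a change in RNA per cell cannot be told apart.

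**Figure D1:**
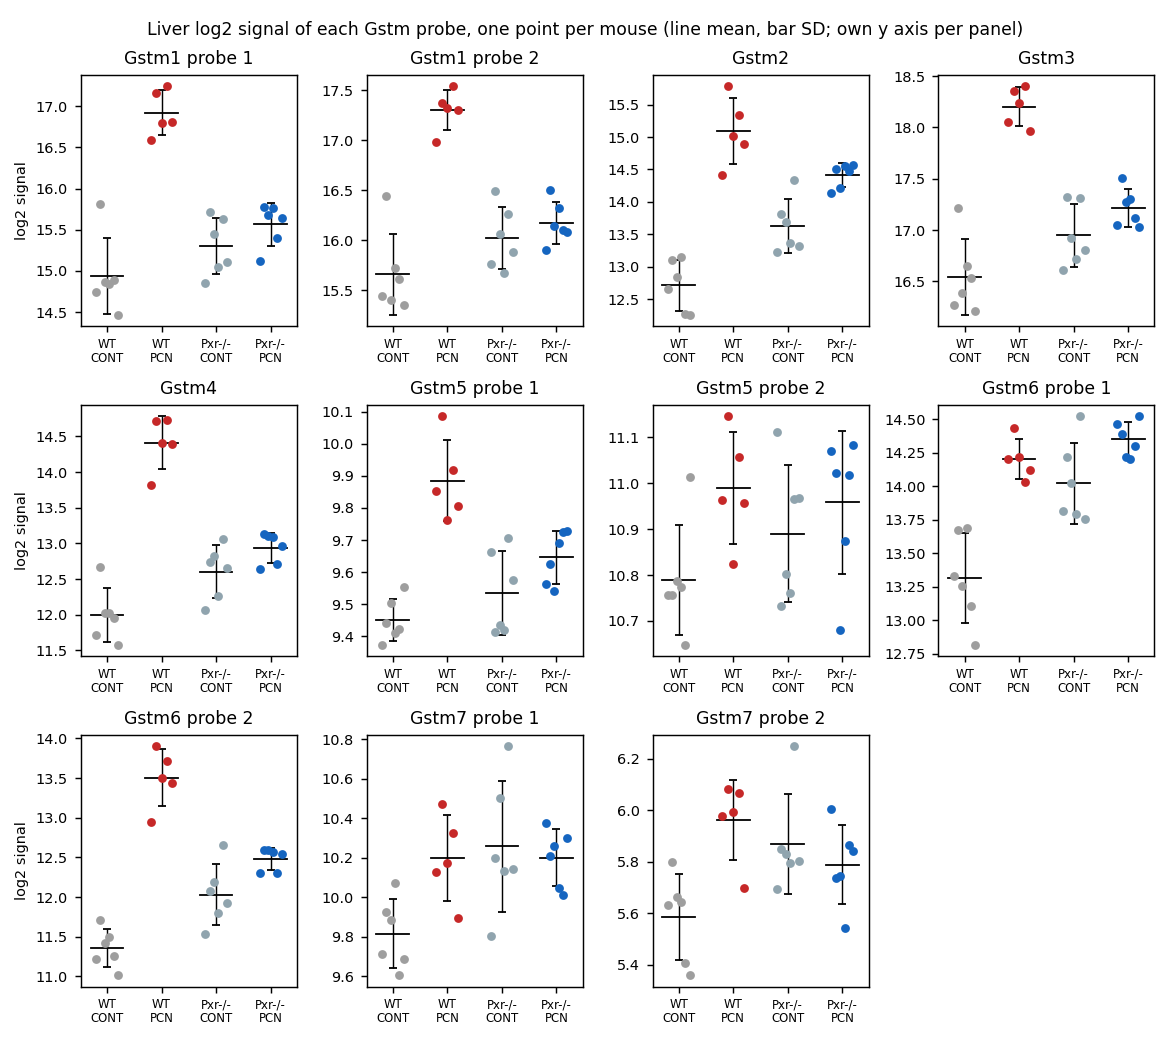
Quantile normalized log2 signal (y axis, a separate scale per panel) of the 11 Gstm probes in the 4 groups (x axis), with 1 point per mouse, the group mean as a line and the SD as a bar. All 5 WT PCN points lie above all 6 WT CONT points for Gstm1, Gstm2, Gstm3, Gstm4, both Gstm6 probes and Gstm5 probe 1, and the Gstm7 and Gstm5 probe 2 groups overlap.

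Gstm4 had the largest change. Its log2 signal was 11.58 at the lowest, 11.98 at the median and 12.67 at the highest in WT CONT. In WT PCN the 5 mice had 13.81, 14.39, 14.41, 14.71 and 14.73. In words, every PCN-treated WT mouse was above every WT control, by more than 1 log2 unit at the nearest. The fitted change was 2.45 (SE 0.172, a 5.46-fold rise with a 95% confidence interval of 4.26 to 6.99, adjusted p = 2.18e-09). In Pxr-/- CONT it ran from 12.07 through a median of 12.70 to 13.06, and in Pxr-/- PCN from 12.64 through 13.03 to 13.13. These 2 groups overlap each other and WT CONT, and both lie below all WT PCN mice. The change in Pxr-/- mice was 0.34 (SE 0.164, adjusted p = 0.238).

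Gstm2 had a change of nearly the same size in WT mice and was the only member called in Pxr-/- mice. WT CONT ran from 12.26 through 12.75 to 13.14, and the 5 WT PCN mice had 14.41, 14.90, 15.02, 15.33 and 15.79. The groups do not overlap, and the change was 2.41 (SE 0.199, 5.30-fold, adjusted p = 3.24e-08). In Pxr-/- mice the controls ran from 13.24 through 13.53 to 14.34 and the PCN group from 14.14 through 14.49 to 14.57. The PCN group was higher and tighter (SD 0.185 against 0.417), with the highest control inside its range. That change was 0.78 (SE 0.189, 1.72-fold, adjusted p = 0.0162). Within washing batch 1 and batch 2 alone it was 0.80 and 0.76, and neither passed at these sizes (adjusted p = 0.176 and 0.244).

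Gstm1 and Gstm3, the members with the highest correlation to each other, had lower changes. Gstm1 probe 2 ran from 15.36 through 15.53 to 16.44 in WT CONT, and the WT PCN mice had 16.98, 17.30, 17.33, 17.37 and 17.54. The highest control was WT CONT 2, which stood apart from the other 5 and was still below the lowest PCN mouse. The change was 1.66 (SE 0.163, 3.17-fold, adjusted p = 4.52e-07), and probe 1 gave 2.01 (SE 0.189, adjusted p = 2.48e-07). Gstm3 ran from 16.21 through 16.46 to 17.21 in WT CONT, with WT PCN mice at 17.97, 18.05, 18.23, 18.35 and 18.40. Again the groups do not overlap, and the change was 1.68 (SE 0.152, 3.20-fold, adjusted p = 1.31e-07). The changes in Pxr-/- mice were 0.15 (Gstm1 probe 2, adjusted p = 0.624), 0.26 (Gstm1 probe 1, adjusted p = 0.425) and 0.27 (Gstm3, adjusted p = 0.297), and the groups overlap for each probe. Gstm1 probe 2 lay between 15.67 and 16.50 in Pxr-/- CONT and between 15.90 and 16.50 in Pxr-/- PCN, and Gstm3 between 16.61 and 17.32 and between 17.03 and 17.51.

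The 2 probes of Gstm6 both rose in WT mice, by different amounts. The brighter probe 1 ran from 12.82 through 13.30 to 13.69 in WT CONT, and the WT PCN mice had 14.03, 14.12, 14.20, 14.22 and 14.43. Probe 2, which bridges introns, ran from 11.02 through 11.34 to 11.71 in WT CONT, and the WT PCN mice had 12.95, 13.43, 13.50, 13.72 and 13.90. Neither probe had overlapping groups. The changes were 0.90 (SE 0.141, 1.87-fold, adjusted p = 0.000119) for probe 1 and 2.17 (SE 0.151, 4.51-fold, adjusted p = 1.88e-09) for probe 2. Within arrays the difference between them was 1.26 (two-sided exact permutation test over the 11 WT arrays, p = 0.00216, the smallest that 462 splits allow, adjusted p = 0.00577 over the 4 genes with 2 probes). That test, and the like tests of the other genes with 2 probes, were chosen after the probes had been seen. By the same exact permutation test the probes of Gstm1 differed by 0.34 and those of Gstm5 by 0.24 (both p = 0.00433, adjusted p = 0.00577), and those of Gstm7 by -0.01 (p = 0.933). In Pxr-/- mice Gstm6 probe 1 changed by 0.33 (adjusted p = 0.149) and probe 2 by 0.45 (adjusted p = 0.0603), neither of which was called. Probe 1 ran from 13.76 through 13.92 to 14.52 in Pxr-/- CONT and from 14.20 through 14.35 to 14.52 in Pxr-/- PCN, and probe 2 from 11.53 through 12.00 to 12.66 and from 12.30 through 12.56 to 12.59. With both probes the groups overlap, and the PCN mice were closer to each other than the controls.

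Gstm5, the member best known from testis and brain, and Gstm7 were not called in any comparison with the main processing. Gstm5 probe 1 had no overlap between WT CONT (9.37, 9.43 and 9.55 at the lowest, median and highest) and WT PCN (9.76, 9.80, 9.85, 9.92 and 10.09), with a change of 0.44 (adjusted p = 0.00012) that is only 1.36-fold. Gstm5 probe 2 changed by 0.21 (adjusted p = 0.0891), with overlapping groups. Gstm7 probe 1 ran from 9.61 through 9.80 to 10.07 in WT CONT, and the WT PCN mice had 9.90, 10.13, 10.18, 10.33 and 10.47. The lowest PCN mouse is below the highest control, and the change was 0.40 (SE 0.123, 1.32-fold, adjusted p = 0.0210). Gstm7 probe 2 gave 0.38 (adjusted p = 0.0102). With the deposited values Gstm5 probe 1 was called in WT mice (0.59, adjusted p = 0.000433), and with the processed signal scaled to its 75th percentile Gstm7 probe 2 was (0.64, adjusted p = 0.0403). Without PXR both Gstm7 probes had small negative values, -0.06 and -0.08 (adjusted p = 0.832 and 0.695), and the Gstm5 probes had 0.11 and 0.07 (adjusted p = 0.349 and 0.692). Gstm7 probe 1 lay between 9.81 and 10.76 in Pxr-/- CONT and between 10.01 and 10.38 in Pxr-/- PCN, so both groups overlap with WT PCN.

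Across the family, 1 of 7 genes was thus called higher by PCN in Pxr-/- mice, Gstm2, where 1.6% of all genes tested were called higher. The median change over the 7 genes was 0.265, against -0.0122 over all genes.

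**Figure D2:**
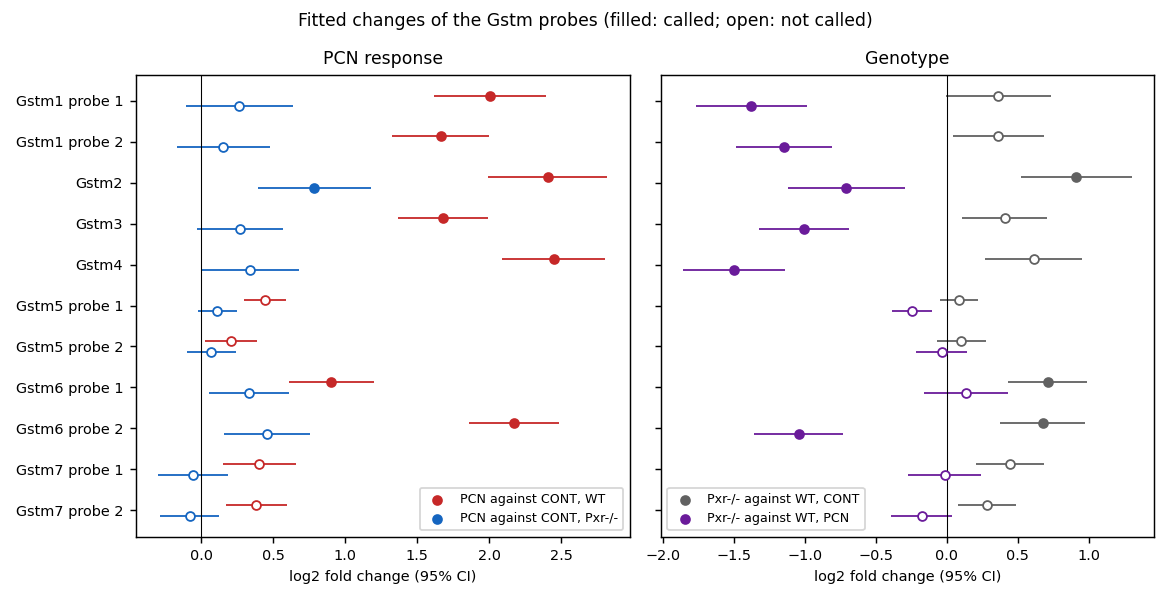
Fitted log2 fold change (x axis) with its 95% confidence interval for each Gstm probe (y axis), for PCN against CONT in both genotypes (left) and for Pxr-/- against WT in control and PCN mice (right). Filled points passed the adjusted p and the fold limit. The WT points of Gstm1, Gstm2, Gstm3, Gstm4 and Gstm6 are filled on the left, and Gstm2 is the only filled Pxr-/- point there.

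The difference between the PCN responses of WT and Pxr-/- mice was called for 5 of 7 genes, with 0.883% of all genes tested called in that direction. It was 2.11 for Gstm4 (SE 0.238, adjusted p = 1.18e-05), 1.51 for Gstm1 probe 2 (adjusted p = 0.000508), 1.74 for Gstm1 probe 1 (adjusted p = 0.000538), 1.62 for Gstm2 (adjusted p = 0.00183) and 1.41 for Gstm3 (adjusted p = 0.000494), each as log2 units by which the WT response was larger. Gstm6 was called through probe 2 (1.72, adjusted p = 3.35e-05), while probe 1 gave 0.57 (95% confidence interval 0.17 to 0.98, adjusted p = 0.158). For Gstm5 the difference was 0.33 and 0.14 (adjusted p = 0.0897 and 0.649), and for Gstm7 it was 0.46 with either probe (adjusted p = 0.198 and 0.114), so a difference was not shown for these genes. Within washing batch 2, which holds 11 of the arrays, only Gstm4 and Gstm6 kept the call, with values of 2.26 and, for Gstm6 probe 2, 1.98. Those that lost it there had values of 1.60 and 1.28 (Gstm1 probes 1 and 2), 1.80 (Gstm2) and 1.34 (Gstm3), and within batch 1 Gstm2 lost it (1.48, adjusted p = 0.0872). This comparison shares its arrays with those in each genotype.

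Control livers differed between the genotypes too, in a comparison that uses the same WT CONT and Pxr-/- CONT arrays as the PCN comparisons above. All 11 probes were higher in Pxr-/- CONT than in WT CONT, with a median of 0.444 over the 7 genes against -0.00462 over all genes, and 2 of 7 genes were called, where 0.252% of all genes tested were called higher. Gstm2 was higher by 0.91 (SE 0.189, 1.88-fold, adjusted p = 0.0257), and all 6 Pxr-/- controls (13.24 to 14.34) were above all 6 WT controls (12.26 to 13.14). Gstm6 was higher by 0.71 with probe 1 (adjusted p = 0.0134), again without overlap (13.76 to 14.52 against 12.82 to 13.69), and by 0.67 with probe 2 (adjusted p = 0.0315). Of all genes, 0.461% had no overlap in this direction, against these 2 of 7. Gstm4 was higher by 0.61 (SE 0.164, adjusted p = 0.121), Gstm7 probe 1 by 0.44 (adjusted p = 0.113), Gstm3 by 0.41 (adjusted p = 0.277) and Gstm1 probe 2 by 0.36 (adjusted p = 0.382), none of them called. The 2 calls were lost when only the control arrays were fitted (adjusted p = 0.115 for Gstm2 and 0.143 for Gstm6 probe 1), and with the deposited values (0.0779 and 0.0592). Leaving out WT CONT 2, the control with the highest Gstm1 signal, added Gstm4 (0.72, adjusted p = 0.0428). Leaving out WT CONT 5 or 6 or Pxr-/- CONT 2, 3 or 5 removed the Gstm2 call, with adjusted p from 0.0515 to 0.0893.

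After PCN the called genes were in the opposite order. In Pxr-/- PCN against WT PCN 5 of 7 genes were called lower, with 1.54% of all genes tested called lower. Gstm4 was lower by a log2 value of -1.50 (SE 0.172, adjusted p = 7.64e-06), Gstm1 probe 2 by -1.15 (adjusted p = 0.000129), Gstm3 by -1.01 (adjusted p = 0.00026), Gstm6 probe 2 by -1.04 (adjusted p = 0.000162) and Gstm2 by -0.71 (SE 0.199, adjusted p = 0.0307). The Gstm2 groups overlap (14.14 to 14.57 in Pxr-/- PCN against 14.41 to 15.79), while those of the other 4 do not. By brighter probes this is 3 of 7 genes, against 3.67% of all genes in this direction. Gstm6 probe 1 did not follow probe 2: it was 0.13 (adjusted p = 0.606), with Pxr-/- PCN mice at 14.20 to 14.52 and WT PCN mice at 14.03 to 14.43. The Gstm2 call was lost in several refits, among them those without WT PCN 2 (-0.57, adjusted p = 0.116), without WT PCN 4 (-0.62, adjusted p = 0.0911) and without any 1 of Pxr-/- PCN 1, 2, 3 or 6 (adjusted p from 0.0534 to 0.0589), and with slide as a fixed block (-0.42, adjusted p = 0.163). Within washing batch 2 only Gstm4 kept its call, while the values of the others there were -1.05 (Gstm1 probe 2), -1.01 (Gstm3), -1.13 (Gstm6 probe 2) and -0.86 (Gstm2).

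For Gstm2, the levels therefore ran, by group mean, from WT CONT (12.72 ± 0.390, SD, n = 6) through Pxr-/- CONT (13.63 ± 0.417, n = 6) and Pxr-/- PCN (14.41 ± 0.185, n = 6) to WT PCN (15.09 ± 0.511, n = 5), and each of these 3 steps was called. For Gstm4 the order of means was the same (11.99 ± 0.375, 12.60 ± 0.368, 12.94 ± 0.213 and 14.41 ± 0.372), and the last step alone was called. The same holds for Gstm1 probe 2 (15.66 ± 0.405, 16.02 ± 0.314, 16.18 ± 0.209 and 17.30 ± 0.202) and Gstm3 (16.54 ± 0.367, 16.95 ± 0.303, 17.21 ± 0.184 and 18.20 ± 0.188). Gstm6 probe 2 had the same order of means as Gstm2 (11.35 ± 0.241, 12.03 ± 0.383, 12.48 ± 0.140 and 13.50 ± 0.360), and its first and last steps were called. For Gstm6 probe 1 the order was WT CONT (13.31 ± 0.336), Pxr-/- CONT (14.02 ± 0.302), WT PCN (14.20 ± 0.150) and Pxr-/- PCN (14.35 ± 0.131), where the first step was called, the WT PCN to Pxr-/- PCN step was not, and Pxr-/- CONT was not tested against WT PCN.

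The size of the WT response differed between the probes of different members beyond the spread of the mice. For some pairs the result depended on the probe. The spread of the mice does not measure how far probes of the same gene differ. Such probes differed in this response by 1.26 for Gstm6, 0.34 for Gstm1, 0.24 for Gstm5 and -0.01 for Gstm7. The tests below therefore compare probes and cannot by themselves rank the genes. The part of probe brightness in these differences was not tested. The difference of 2 genes' log2 signals was taken within each array and tested between WT PCN and WT CONT by a two-sided exact permutation test over all 462 splits of the 11 arrays, for all 21 pairs of genes by their brighter probe. The test passed for 18 of the 21 pairs after adjustment over the pairs. Gstm4 and Gstm2, which differed by 0.05 from each other (exact permutation p = 0.781, adjusted p = 0.81), rose more than Gstm1 and Gstm3 by these probes. Gstm4 exceeded Gstm1 by 0.78 and Gstm3 by 0.76 (adjusted p = 0.00455 for both), and Gstm2 exceeded them by 0.73 and 0.71 (adjusted p = 0.0134 and 0.0177). Gstm1 and Gstm3 differed by -0.02 (exact permutation p = 0.81, adjusted p = 0.81), Gstm5 and Gstm7 by -0.18 (p = 0.158, adjusted p = 0.175), and both of the latter responded less than Gstm6 probe 1 (adjusted p = 0.0114 and 0.00909). With the dimmer probe of the genes that have 2, a choice made after seeing the data, 16 pairs passed. Gstm6 then exceeded Gstm3 by 0.49 (adjusted p = 0.0162) where its brighter probe was below Gstm3 by 0.77, and its difference from Gstm1 turned to 0.16 above it (adjusted p = 0.33) from 0.75 below. Gstm2 no longer passed against Gstm1 (0.39 above it, adjusted p = 0.121 by the exact permutation test) or against Gstm6 (0.23 above it, adjusted p = 0.107), and Gstm1 exceeded Gstm3 by 0.32 (adjusted p = 0.0162).

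Correlations of profiles over the 23 arrays, with the washing batch removed, are given as a description, since the points share arrays and groups. Gstm1 and Gstm3 had a Pearson r of 0.985, and 0.929 after the group means were also removed. Gstm4 had 0.970 with Gstm1, 0.977 with Gstm3 and 0.912 with Gstm2. Gstm6 probe 2 was closest to Gstm4 (0.982, and 0.914 with group means removed). Gstm6 probe 1 was nearer to Gstm2 (0.846) than to Gstm4 (0.634). Gstm7 probe 1 had Gstm6 as the closest of 21001 genes (0.785). Gstm5 probe 2 had at most 0.495 (Gstm2), whereas Gstm5 probe 1 had 0.822 with Gstm2, 0.820 with Gstm4 and 0.787 with Gstm3 (0.247, -0.0588 and -0.124 with group means removed).

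Genes outside the family with the most similar profiles were found by the same r among 15777 genes with a RefSeq name. For Gstm4 they were the hair keratin gene Krt31 (0.980), the aldo-keto reductase gene Akr1b7 (0.980) and Rnf150 (0.977), and for Gstm3 Akr1b7 (0.965), Krt31 (0.958) and Rnf150 (0.954). For Gstm1 probe 2 they were Gm10639 (0.963), Akr1b7 (0.961) and Krt31 (0.959). Gstm2 was most like the P450 gene Cyp2c55 (0.945), Afmid (0.920) and 4931406C07Rik (0.912). Gstm6 probe 1 was most like Papss2, which makes activated sulfate (0.910), Igfbp2 (0.877) and Acsl5 (0.876). Gstm7 probe 1 (Rdh11 0.785, Samm50 0.761, Chrna4 0.760) and Gstm5 probe 2 (Hilpda 0.707, Mrc2 0.685, Cnfn 0.683) had lower maxima. The top genes of Gstm4 kept a Pearson r of 0.808 to 0.845 after the group means were removed, taken over all 23 arrays together. Those of Gstm1 probe 2 had 0.754 to 0.893 and those of Gstm3 0.686 to 0.728. For Gstm2 the values were 0.783 (Cyp2c55), 0.717 (Afmid) and 0.43 (4931406C07Rik). For Gstm6 probe 1 they were 0.515 (Papss2), 0.599 (Igfbp2) and 0.868 (Acsl5). Those of Gstm7 probe 1 were 0.487 to 0.580, and those of Gstm5 probe 2 were 0.618 to 0.640. These genes were picked as the most similar on the same arrays.

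Probes that flank the cluster were measured too. Of 38 other probes (25 named features) inside the cluster or within 500 kb on either side, 4 were called higher and 2 lower in WT mice, from 5 features. Of all 32087 probes, 1085 (3.38%) were called higher and 685 lower. The higher ones include TC1671821, treated below, whose call is not read as a result. The nearest named neighbour on one side, Ampd2, whose product deaminates AMP, lay 30.2 kb beyond Gstm4 and had log2 changes of -0.20 to -0.40 with its 3 probes, none called. The nearest on the other side, ENSMUST00000196916, lay 29.8 kb before Gstm5 and had 0.44, not called. Farther out Psrc1 (0.87) and 5330417C22Rik (0.81 and 0.84) were higher and Amigo1 (-1.01) and 1 of 3 Sort1 probes (-0.65) lower. In Pxr-/- mice 1 of 3 probes of Csf1 was called higher (0.78), the only call among the 38, where 1.23% of all probes were called higher.

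A probe of another transcript lay inside the cluster. TC1671821, a transcript with no gene name, is at chr3:107745442-107745501 on the minus strand, between the 2 Gstm6 probes. Its log2 signal was 5.16 to 5.46 in WT CONT, where it was well above background on 1 of 6 arrays, and 6.63 to 7.93 in WT PCN, where it was so on 5 of 5. It passed the filter on dim signals through WT PCN alone, so no fold change or p is given for it and its call is not read as a result. In Pxr-/- mice it was well above background on 1 of 6 control and on 0 of 6 PCN arrays, with signals of 5.19 to 5.44 and 5.12 to 5.41. WT PCN was the only group in which it was above background on most arrays, and whether it belongs to the Gstm6 transcript was not tested.

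**Figure D3:**
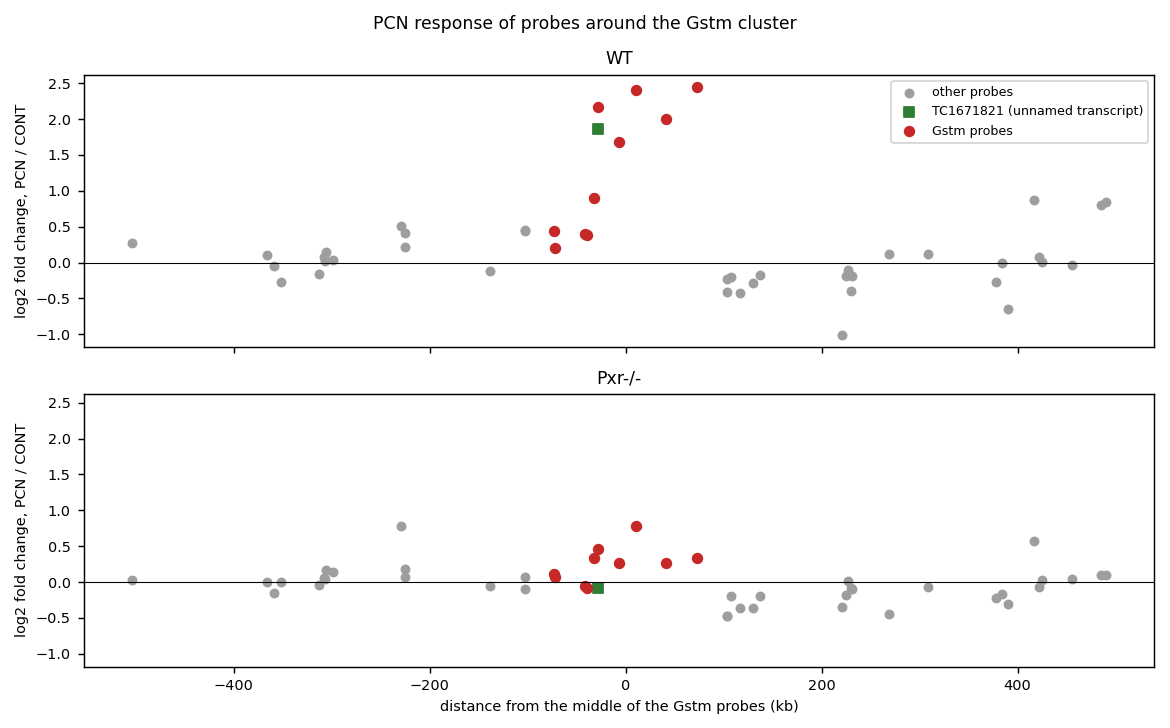
Log2 fold change of PCN against CONT (y axis) in WT (top) and Pxr-/- mice (bottom) for the 10 Gstm probes placed on chromosome 3, TC1671821 and the other kept probes within 500 kb, against distance in kb from the middle of the Gstm probes (x axis). In WT mice the Gstm probes reach 2.45, and the nearest probes on either side, of ENSMUST00000196916 and Ampd2, lie at 0.44 and from -0.40 to -0.20. The height of TC1671821 is not read as a result, since it passed the filter on dim signals through WT PCN alone.

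Other genes of the glutathione system were read from lists, beside the 4.25% of all genes called higher in WT PCN and the 2.83% called lower. For the genotype difference, 0.883% of all genes tested were called in the direction of a larger WT change. Of 14 other glutathione S-transferase genes tested, 3 were called higher, the alpha-class genes Gsta2 (2.61, SE 0.540, adjusted p = 0.00149) and Gsta4 (1.21, adjusted p = 0.000555) and the theta-class gene Gstt3 (1.59, adjusted p = 8.33e-06). Gstt2 was called lower through its dimmer probe (-1.29, adjusted p = 0.00368), with -0.46 for the brighter one. The median of this list was 0.0151, against 1.66 for the Gstm genes. None of the 14 was called in Pxr-/- mice (1 was called lower without Pxr-/- CONT 6 or Pxr-/- PCN 6), and the genotype difference was called for Gsta4 (1.58, adjusted p = 0.00668) and Gstt3 (1.51, adjusted p = 0.00305). Within washing batch 2 only 1 gene of the list was called higher and 1 lower in WT PCN, and within either batch alone neither genotype difference was called.

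Among 14 tested genes of glutathione synthesis and recycling, 4 rose in WT PCN, and 2 were called with slide as a fixed block. They were Gsr, which regenerates reduced glutathione (0.79, adjusted p = 4.12e-06), Pgd, an NADPH source (0.79, adjusted p = 0.000187), Ggct (0.64, adjusted p = 0.0019) and Glrx (0.59, adjusted p = 0.00387). Gclc, the catalytic subunit of the enzyme that limits glutathione synthesis, had -0.47 (adjusted p = 0.0369, below the fold limit) and its partner Gclm -0.19 (adjusted p = 0.0715). Of 15 tested genes that process or export the conjugates, the transporter Abcc3 (1.38, adjusted p = 2.88e-07) and the dipeptidase Dpep2 (1.21, adjusted p = 0.00114) rose. No gene of these 2 lists was called in Pxr-/- mice, although 1 of the second list was with no washing batch term, with the processed signal scaled to its 75th percentile, with only the groups compared, and without WT PCN 2, WT PCN 3 or Pxr-/- PCN 6. The genotype difference was called for Gsr (0.81, adjusted p = 0.000944), Pgd (0.85, adjusted p = 0.0143) and Abcc3 (0.99, adjusted p = 0.00366), and for none of them within either washing batch alone.

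Of 13 tested Nrf2 targets outside the Gst genes, 4 rose in WT PCN: Cbr3 (0.86, adjusted p = 0.000721), Ephx1 (0.63, adjusted p = 0.000718), Srxn1 (0.61, adjusted p = 0.000146) and Hmox1 (0.59, adjusted p = 0.0304). This count was 2 with slide as a fixed block, 1 higher and 1 lower without WT PCN 4, and all 4 calls were lost within washing batch 2. No gene of this list was called in Pxr-/- mice, although 1 was without Pxr-/- CONT 4. The genotype difference was called for Srxn1, and not within either washing batch alone. Srxn1, Ephx1 and Cbr3 were called lower in Pxr-/- PCN than in WT PCN, as were 1.54% of all genes tested. None of these 3 calls held within washing batch 2. Gclc and Gclm are in this list too, and Nqo1, one of its best known members, had 0.42 (adjusted p = 0.053). Among 13 receptors and factors known to act on Gst genes, Cebpa was lower in WT PCN (-0.72, adjusted p = 0.000201), a call lost within washing batch 2 and with the deposited values, where 2 genes of the list were called higher. In Pxr-/- PCN the CAR gene Nr1i3 (0.97, adjusted p = 0.00531) and Ahr (0.92, adjusted p = 0.00376) were higher and Nfe2l2, the Nrf2 gene, was lower with its dimmer probe (-0.66, adjusted p = 0.00451) but not its brighter one (-0.06). Of all genes tested, 1.6% were called higher and 0.95% lower by PCN in Pxr-/- mice. Within washing batch 1 only 1 gene of the list was called there, in the higher direction. The genotype difference was called for Nr1i3, where it was -1.27 (adjusted p = 0.0213), with 0.29% of all genes tested called in that direction. This call was lost with slide as a fixed block, with the deposited values and within either washing batch.

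**Figure D4:**
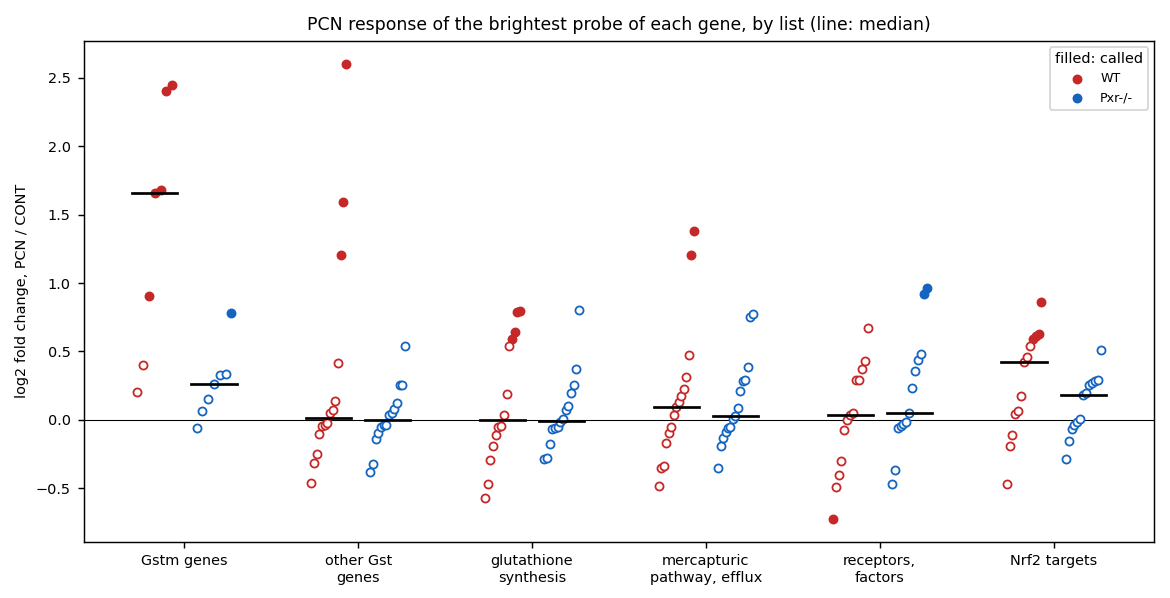
Log2 fold change of PCN against CONT (y axis) for the brightest probe of each gene in 6 lists (x axis), in WT and Pxr-/- mice, with the median of the list as a line and probes that passed both limits filled. The WT median is 1.66 for the Gstm genes and between -0.00455 and 0.423 for the other lists; genes called through a dimmer probe alone, such as Gstt2, appear open.

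Markers of cell types were read beside these results. In WT PCN none of 8 hepatocyte and none of 9 pericentral hepatocyte markers was called. Of all genes tested, 4.25% were called higher there and 2.83% lower. Linear signals were summed over each list, so that the brightest genes weigh most, and the log2 of the sum was taken. For the hepatocyte list it ran from 20.35 to 20.60 in WT CONT and from 20.37 to 20.50 in WT PCN. For the pericentral list it ran from 18.25 to 18.41 and from 18.00 to 18.48. In Pxr-/- CONT and Pxr-/- PCN the pericentral sums were 18.29 to 18.56 and 18.51 to 18.72, and 4 of 9 pericentral markers (Glul, Cyp1a2, Oat and Slc13a3) were higher in Pxr-/- PCN than in WT PCN, where the called Gstm genes were lower. In the same comparison 2 of 7 periportal markers (Sds and Pck1) and 2 of 8 general hepatocyte markers (Ttr and Tat) were also higher, and the cholangiocyte marker Sox9 was lower. Of all genes tested, 0.841% were called higher in this comparison and 1.54% lower. In WT PCN 1 of 7 tested cholangiocyte markers (Sox9, 0.76) rose, and 1 of 7 periportal markers (Pck1, -1.70) fell. By brightest probes, 0 of the 7 periportal markers had a positive change there (median -0.185). The periportal sum ran from 18.41 to 19.11 in WT CONT and, without overlap, from 18.25 to 18.40 in WT PCN. In Pxr-/- CONT and Pxr-/- PCN it was 18.59 to 19.17 and 18.29 to 18.72, with a median PCN change of -0.187. Of 8 stellate cell markers 2 rose in WT PCN, Col1a1 by 3.17 and Col3a1 by 2.18 with their brightest probes. The 2 dimmer Col3a1 probes that were also called gave 1.00 each. Both genes were called in Pxr-/- PCN too (1.96 and 1.22), where 1.6% of all genes tested were called higher. The part of these markers in the Gstm changes was not tested.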

How the data were processed

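Liver RNA of 23 mice was measured on 23 one-colour Agilent arrays, and groups, replicate numbers and the 2 washing batches (3 mice of each group per batch, with 2 WT PCN mice in batch 2) were taken from the labels. Per the file headers, the deposited scanner files hold Agilent Feature Extraction (10.10.1.1) intensity values per spot on a linear scale, not normalized between arrays. The authors also deposited log2 values of the same arrays. By the methods of the study they filtered, log2 transformed and batch corrected the median signals and normalized them with CrossNorm, whose stacking of arrays is not given in the sources used here.

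The analysis started from the median intensity. Outlier spots were set to missing, spots of a probe were averaged on the log2 scale, and a probe stayed if more than 50% of a group's arrays flagged it as well above background, in any group (32087 probes, 21056 genes). Values were quantile normalized and fitted with limma 3.58.1 (R 4.3.3) over all 23 arrays, with a term per group and one for washing batch (18 residual degrees of freedom). P-values were adjusted by Benjamini-Hochberg over all probes, and a call needed an adjusted p of at most 0.05 and a fold change above 1.5. A gene was called when any of its probes was, and its single value is that of the probe with the highest mean signal. Quantile normalization can pull in extreme signals, and none of the Gstm probes was saturated on any array. The number of arrays limits the precision.

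Each mouse gave 1 array, and no array correlated with another above 0.9966. The fit was checked on simulated data. Pairs of members were compared by exact permutation tests, and start-site windows were aligned with Biopython 1.88. Named genes were all members with every probe, list genes when called, the 3 most similar genes of each member, and neighbours within 500 kb when called or closest. Exceptions named for their background are Nr1i2, Gclc, Gclm and Nqo1. Members and lists were chosen with earlier results of these data known. Scaling, filter, batch, slide, replicate block and leave-one-out alternatives were run. The names of 15826 genes (75.2%) were found in RefSeq.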

Additional observations from a re-analysis of the deposited data

Results flagged for a closer look

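The PCN response differed between the genotypes, by the interaction term of the limma fit, for Gstm1 probe 1 (1.74), Gstm1 probe 2 (1.51), Gstm2 (1.62), Gstm3 (1.41), Gstm4 (2.11) and Gstm6 probe 2 (1.72), in log2 units by which the WT change exceeded the Pxr-/- change. In a Dixon test of the 44 combinations of probe and group, of which chance marks about 1 in 20, a single mouse stood apart in 4. WT CONT 2 had a log2 signal of 15.82 for Gstm1 probe 1, with the next mouse at 14.89, and 16.44 for probe 2, with the next at 15.72. For the dim Gstm7 probe 2, WT PCN 5 had 5.70 (next 5.98) and Pxr-/- CONT 5 had 6.25 (next 5.85).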

How the results depend on the processing

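The count of Gstm genes called for PCN in WT mice stayed at 5 or 6 of 7 under all alternatives, and 18 of 21 gene pairs passed under each planned one. The call in Pxr-/- mice (1 gene, Gstm2) fell to 0 within batch 1 and to 0 within batch 2. The genotype difference (5 genes) fell to 2 and Pxr-/- PCN against WT PCN (5 genes) to 1 within batch 2. For Pxr-/- CONT against WT CONT (2 genes) the count was 0 with the deposited values, 1 with no washing batch term, 0 within batch 1, 0 within batch 2, 0 with only the groups compared, and from 1 to 3 when 1 mouse was left out. With the deposited values the median log2 change of all probes was 0.11 for PCN in WT (-0.0231 with the main processing). It was -0.106 for the genotypes in control mice (-0.00609 with the main processing) and -0.179 after PCN (0.0112 with the main processing). The cause of the lost calls was not tested, and within a batch there were fewer arrays.

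Among gene pairs, 2 that had passed (Gstm6 against Gstm1 and Gstm3) turned with the dimmer probes. In the limma fits direction turned for values that were not called, in these cases. With the deposited values the control genotype difference was -0.055 for Gstm5 probe 1 and -0.036 for probe 2, and the difference after PCN was -0.17 for Gstm6 probe 1. For Gstm7 probe 1 the difference after PCN was 0.0014 with no batch term, 0.13 with slide as a fixed block, 0.011 with the replicate block and 0.10 within batch 1, and -0.077 to 0.033 when 1 mouse was left out. Its PCN change in Pxr-/- mice was 0.034 with slide as a fixed block, 0.17 within batch 1 and -0.13 to 0.029 when 1 mouse was left out, and that of Gstm7 probe 2 was 0.092 within batch 1. For Gstm5 probe 2 the difference after PCN was 0.0090 within batch 2 and -0.095 to 0.018 when 1 mouse was left out.

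Samples of the same replicate number had r above 0.1 in 11 of 33 pairs (range -0.251 to 0.489). For WT CONT against Pxr-/- CONT it was 4 of 6 pairs (-0.0432 to 0.489), so in no comparison did every pair pass and the numbers were not taken as pairing. With the replicate block the counts were 5, 1, 5 and 5, and 3 for the control genotype comparison, where Gstm4 was added (0.61, adjusted p = 0.0444). No paired analysis was made of the gene pairs. Signal over background limits Gstm7 probe 2, which was well above background on 22 of 23 arrays.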
